A study of Bos taurus with 22 samples.

Results

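bta-miR-21-5p, the mature strand from the 5′ arm of the miR-21 precursor, was followed in bovine plasma as 1 row, chosen by its name, of the 844 mature miRNAs in the read count table. The 22 libraries came from 11 Holstein-Friesian heifers, 14 to 17 months old and not inseminated before, that were bled into EDTA on Day 60 of pregnancy (11 libraries) and on Day 0, the day of insemination and the non-pregnant baseline (11 libraries). All heifers were synchronised, inseminated and found pregnant by ultrasound, so each served as its own baseline. No non-pregnant heifers were sequenced on Day 60, and pregnancy and the passage of time cannot be told apart. Plasma miRNAs come from many organs and blood cells, and fewer releasing cells and less miRNA per cell cannot be told apart in such samples.

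miRNAs guide Argonaute proteins to messenger RNAs through the seed, a short stretch near the 5′ end. In human and mouse cells miR-21-5p is well known for repressing PDCD4, an inhibitor of translation and a tumour suppressor. It is made in many cell types, among them leukocytes, endothelium, fibroblasts and epithelium, and is common in blood. The strand from the other arm, miR-21-3p, leaves the same precursor but is usually loaded into Argonaute less often, so the ratio of the arms describes what remains of each strand.

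The deposited positions, on the bosTau4 assembly, place miR-21-5p on the plus strand of chromosome 19 from 10049140 to 10049163 and miR-21-3p from 10049179 to 10049200, 15 bases downstream. In the RefSeq annotation of the ARS-UCD2.0 assembly the miR-21 gene lies between VMP1, a protein of autophagosome formation, and TUBD1, a tubulin gene. It lay outside the annotated span of VMP1. The nearest other rows of the table were miR-301a, 681392 bases away on the opposite strand, and miR-454, 691034 bases away. miR-301a did not pass the test of Day 60 against Day 0 (log2 fold-change 0.46, SE 0.19, edgeR FDR 0.0669), and miR-454 fell below the filter on low levels. Apart from its own other arm, no row of the table lay nearer to miR-21-5p on the deposited positions.

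miR-21-5p was abundant in every library on both days. Levels are given as RPMM, the reads of a miRNA scaled to a library total of 1000000 miRNA reads. Libraries held 304117 to 12775451 miRNA reads on Day 60 and 1912290 to 6839128 on Day 0. miR-21-5p took 5885 to 233370 of these reads (median 162449) on Day 60 and 44684 to 165369 (median 88917) on Day 0. Its share of miRNA reads was lowest at 1.78%, with a median of 2.09% and a maximum of 3.62%, on Day 60, against 1.47%, 2.31% and 2.68% on Day 0. The shallowest library, that of heifer 17 on Day 60, still fixed the share at 1.94% (Wilson 95% interval 1.89 to 1.98%), so counting error was small beside the differences between animals.

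**Figure D1:**
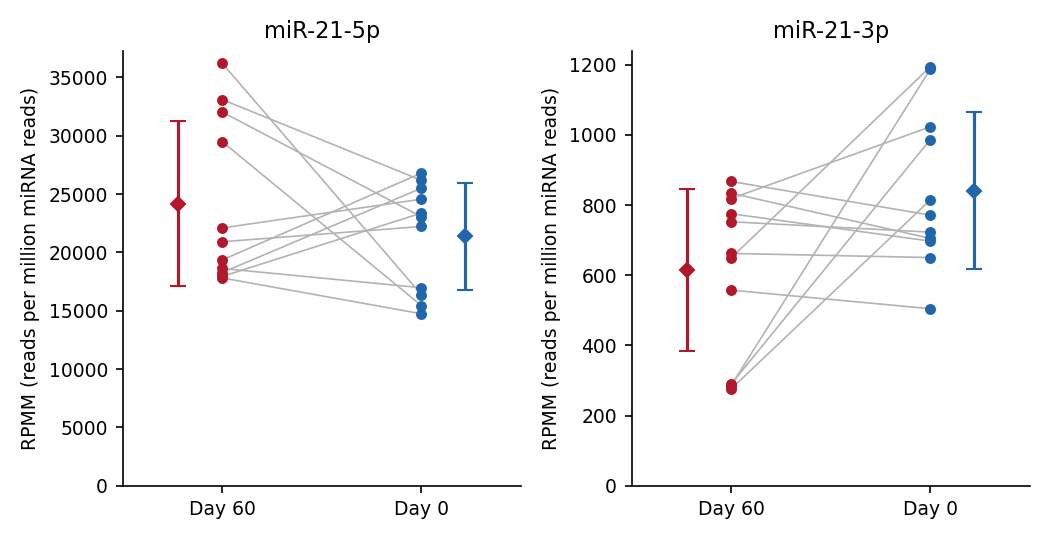
Levels of miR-21-5p (left) and miR-21-3p (right) in RPMM on Day 60 and on Day 0, with 1 point per library, lines joining the libraries of a heifer, and diamonds with bars for the mean ± SD (n = 11 each). miR-21-5p averaged 24166 RPMM on Day 60 and 21384 RPMM on Day 0, and 3 Day 60 libraries of miR-21-3p sat below 300 RPMM.

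The level averaged 24166 ± 7058 RPMM on Day 60 and 21384 ± 4590 RPMM on Day 0 (SD, n = 11 each). The days overlapped. On Day 60 the libraries of heifers 10, 11, 24 and 28 held 32033, 36212, 29495 and 33101 RPMM, above the highest Day 0 library at 26795 RPMM. The other 7 Day 60 libraries ran from 17808 to 22096 RPMM, within the Day 0 range of 14740 to 26795 RPMM.

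By mean RPMM over the 22 libraries, miR-21-5p was the 11th most abundant miRNA, at 22775 ± 5982 RPMM (SD, n = 22). Its rank within a library ran from 6 to 16 on Day 60 and from 9 to 18 on Day 0, and the median rank was 11 on both days. Next above it stood miR-451, the red cell miRNA that is made without Dicer, at 23130 RPMM, and then miR-423-5p at 29106 RPMM. Next below stood miR-101, known in human cells for repressing EZH2, at 21809 RPMM, and miR-92a, of the miR-17-92 cluster, at 21313 RPMM. None of these 4 neighbours passed a test against miR-21-5p over the heifers. The mean log2 differences of miR-21-5p from miR-101 and miR-92a were 0.14 ± 0.47 and 0.09 ± 0.46 (SD, n = 11; exact sign-flip permutation test, adjusted p = 0.610 for both). The mean log2 difference of miR-21-5p from miR-451 was 0.09 ± 0.55 (SD, n = 11; exact sign-flip permutation test on the mean of both days, two-sided p = 0.610, adjusted p = 0.610 over 4 neighbours), with miR-21-5p the higher in 7 of 11 heifers. That from miR-423-5p was -0.33 ± 0.41 (SD, n = 11; exact sign-flip permutation test, p = 0.0156, adjusted p = 0.0625), with miR-21-5p the higher in 4 of 11.

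The relative spread of miR-21-5p was below that of most miRNAs read. Its CV over the 22 libraries was 26.3% on RPMM, rank 30 from the lowest among the 195 miRNAs above the filter, and 25.2%, rank 29, on TMM-normalised reads. Among the 15 most abundant miRNAs it ranked 4 from the lowest on RPMM, after miR-142-5p (24.7%), miR-92a (24.7%) and miR-22-3p, and 3 on TMM-normalised reads. miR-128, which the study used with a spiked-in miRNA to normalise its plasma RT-qPCR, had 15.7%. By day the CV of miR-21-5p on RPMM was 29.2% on Day 60 and 21.5% on Day 0.

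The comparison of Day 60 with Day 0 asks whether plasma miR-21-5p moves with early pregnancy. miR-21-5p did not pass the test. The counts were TMM-normalised and put through edgeR's quasi-likelihood test with a term for each heifer, and p-values were adjusted by Benjamini-Hochberg (FDR, threshold 0.05) over the 195 miRNAs that exceeded 25 RPMM in over 8 libraries of a day. TMM-normalised reads, on the same scale of 1000000 reads, averaged 25500 ± 6001 on Day 60 and 19941 ± 4004 on Day 0 (SD, n = 11 each). The log2 fold-change was 0.35 (SE 0.14, unadjusted edgeR p = 0.0298, FDR 0.0700), a ratio of 1.27, with a higher level on Day 60 in 8 of 11 heifers. In the same test 35.4% of the 195 miRNAs passed (17.4% of the 195 higher on Day 60 and 17.9% lower), and miR-21-5p stood at rank 83 by p. The split of calls, 34 higher and 35 lower with TMM, was 11 and 57 when libraries were scaled by their totals, 21 and 58 by their upper quartile and 35 and 20 by miR-128.

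The size of the difference depended on how libraries were scaled, while its sign held under all scalings tried. The largest within-heifer ratios of TMM-normalised reads, Day 60 over Day 0, were 1.98 in heifer 11, 1.81 in heifer 10 and 1.76 in heifer 24. The level was lower on Day 60 in heifers 17, 31 and 32, with ratios of 0.841, 0.957 and 0.996. On RPMM, which use library totals alone, miR-21-5p was higher on Day 60 in 6 of 11 heifers, with a mean log2 difference of 0.16 ± 0.55 (SD, n = 11; exact sign-flip permutation test, two-sided p = 0.371). In edgeR with library totals the log2 fold-change was 0.15 (SE 0.18, FDR 0.501) and with the upper quartile 0.19 (FDR 0.287). It was 0.41 with DESeq2 size factors, where it passed (SE 0.14, edgeR FDR 0.0366), and 0.43 with scaling to miR-128 (SE 0.17, edgeR FDR 0.0675). The median log2 fold-change of all 195 miRNAs moved with the scaling too, at -0.06 with TMM, -0.25 with library totals, -0.22 with the upper quartile, -0.00471 with DESeq2 size factors and 0.02 with scaling to miR-128. A scaling shifts all miRNAs of a library alike, so the distance of miR-21-5p from that median is nearly fixed.

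**Figure D2:**
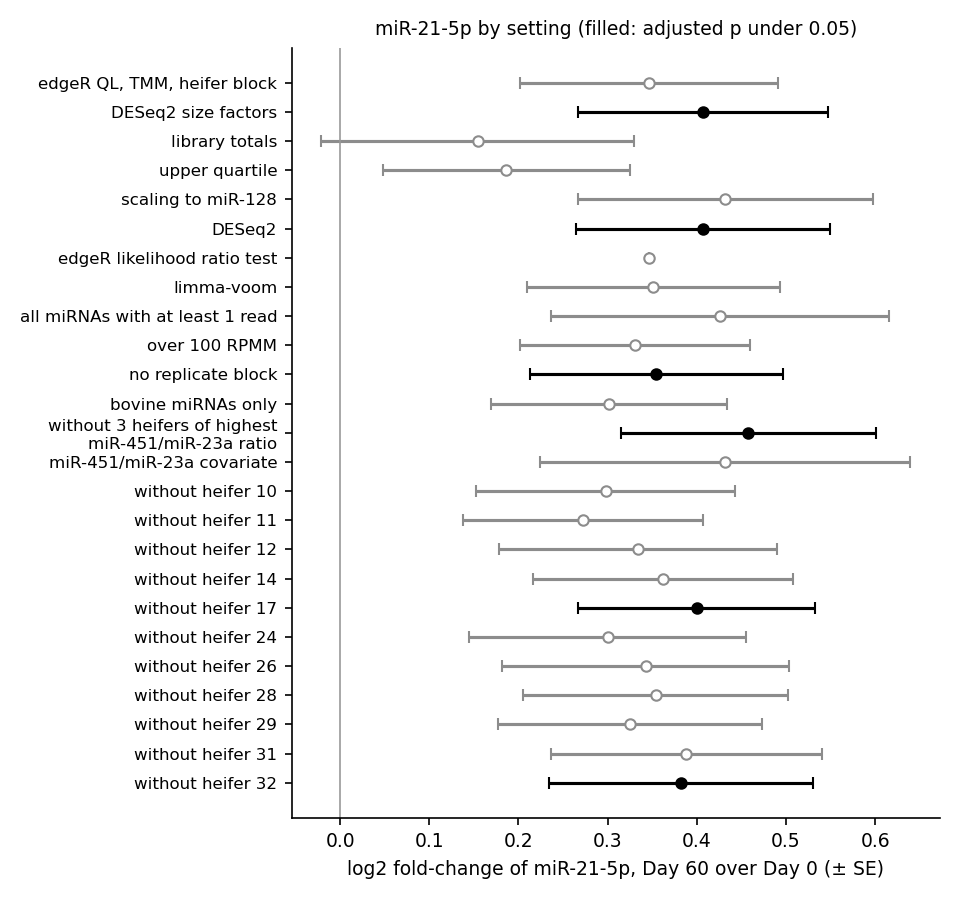
The log2 fold-change of miR-21-5p, Day 60 over Day 0 (horizontal axis, bars ± SE where the tool gives one), under edgeR with TMM and heifer as a block (first) and each alternative, with filled points where the adjusted p was under 0.05. All points lie above 0, between 0.15 and 0.46, and most are not filled.

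Among the other 14 of the 15 most abundant miRNAs, 4 were higher and 1 was lower on Day 60, a share near the 35.4% called over all 195. Their median log2 fold-change was 0.05, against -0.06 over all 195. miR-143, a smooth muscle miRNA, had a log2 fold-change of 1.63, miR-101 0.80, miR-451 0.79 and miR-142-5p, of blood cells, 0.51 (edgeR FDR 0.00866, 0.0238, 0.0425 and 0.0166). miR-103 was lower, at -0.78 (edgeR FDR 0.0220). miR-21-5p sat between these groups, together with miR-486 at 0.43 (edgeR FDR 0.236) and miR-30d at 0.25 (edgeR FDR 0.415). With library totals 1 of the 14 was higher and 3 were lower, and the median turned to -0.14.

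**Figure D3:**
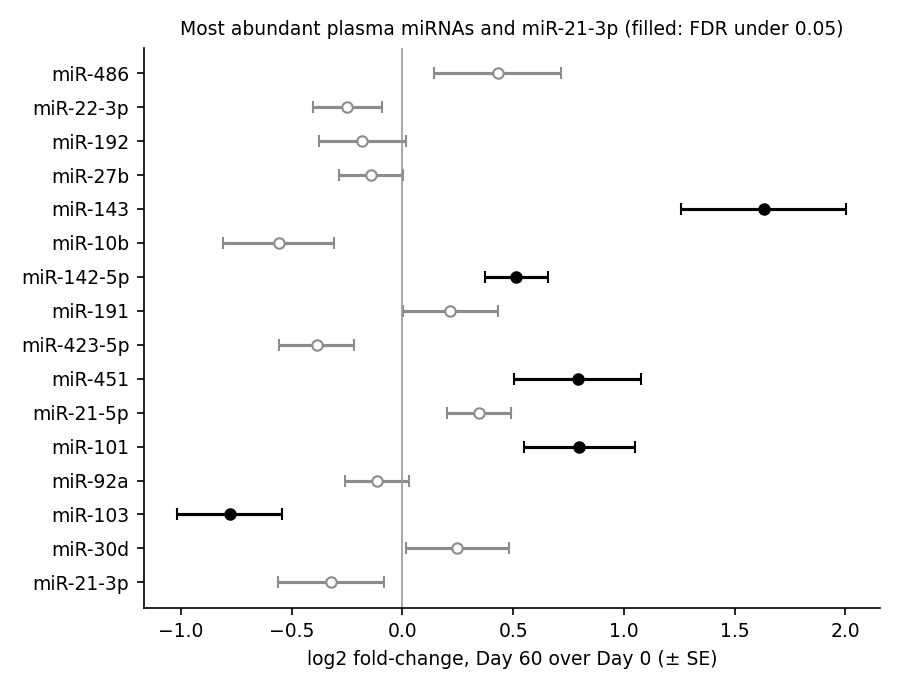
The log2 fold-change, Day 60 over Day 0 (horizontal axis, ± SE, edgeR), of the 15 most abundant miRNAs in falling order of mean RPMM and of miR-21-3p, with filled points where FDR was under 0.05. miR-21-5p, at 0.35, is not filled, and miR-21-3p, at -0.32, lies on the other side of 0.

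The other strand of the precursor was far scarcer. miR-21-3p averaged 615 ± 231 RPMM on Day 60 and 841 ± 225 RPMM on Day 0 (SD, n = 11 each). Its lowest, median and highest levels were 276, 662 and 867 RPMM on Day 60 and 504, 771 and 1194 RPMM on Day 0. On Day 60 the libraries of heifers 14, 17 and 31 held 276, 289 and 285 RPMM, below all Day 0 libraries, and the other 8 ran from 557 to 867 RPMM. The log2 fold-change of miR-21-3p was -0.32 (SE 0.24, edgeR FDR 0.281), with 5 of 11 heifers lower on Day 60. It did not pass under any scaling tried.

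Reads of miR-21-5p per read of miR-21-3p, a ratio within a library that needs no scaling between libraries, were higher on Day 60. The ratio averaged 43.7 ± 15.7 on Day 60 and 26.0 ± 4.19 on Day 0 (SD, n = 11 each). Its lowest, median and highest values were 25.6, 38.1 and 66.9 on Day 60 and 21.5, 26.1 and 34.0 on Day 0. On Day 60, 7 libraries lay above the highest Day 0 library. The mean log2 difference was 0.68 ± 0.60 (SD, n = 11), a ratio of 1.61, and 10 of 11 heifers had the higher ratio on Day 60 (two-sided exact sign-flip permutation test, p = 0.00391, where the smallest possible is 0.000977). Heifer 32 was the exception, with 29.4 on Day 60 and 34.0 on Day 0.

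The heifers with the largest shift were 31, 17, 28 and 14. The ratio in heifer 31 was 64.0 on Day 60 and 21.5 on Day 0, and that in heifer 28 was 51.0 on Day 60 and 21.9 on Day 0. In heifer 17 it was 66.9 on Day 60, resting on 88 reads of miR-21-3p (Wilson 95% interval of the ratio 54.2 to 82.5), and 27.2 on Day 0. In these 4 heifers miR-21-3p was lower on Day 60 by 0.87 to 1.64 on the log2 scale of TMM-normalised reads. In heifers 11 and 24 the arms moved otherwise, with miR-21-5p higher by 0.99 and 0.81 and miR-21-3p changed by 0.08 and 0.03.

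Arm ratios were then computed for each precursor with both arms among the 195 miRNAs and close together on the deposited positions. This comparison was added after the values of miR-21 had been seen. The rule on positions left out let-7a, whose 5p and 3p arms had log2 fold-changes of 0.75 and 0.23. Of 11 such precursors, miR-21 had the second largest shift in size. miR-6119 shifted by 0.95 on the log2 scale (exact sign-flip permutation test, adjusted p = 0.0465 over 11 precursors, higher in 9 of 11 heifers), miR-21 by 0.68 (adjusted p = 0.0215, higher in 10 of 11) and miR-423 by 0.51 (adjusted p = 0.0215, higher in 10 of 11). The other 8 did not pass, with shifts from -0.54 for miR-425 to 0.29 for miR-17. miR-126, of endothelium and platelets, had -0.04 and miR-142, of blood cells, -0.10. Whether the shift of miR-21 differs from those of the other precursors was not tested.

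**Figure D4:**
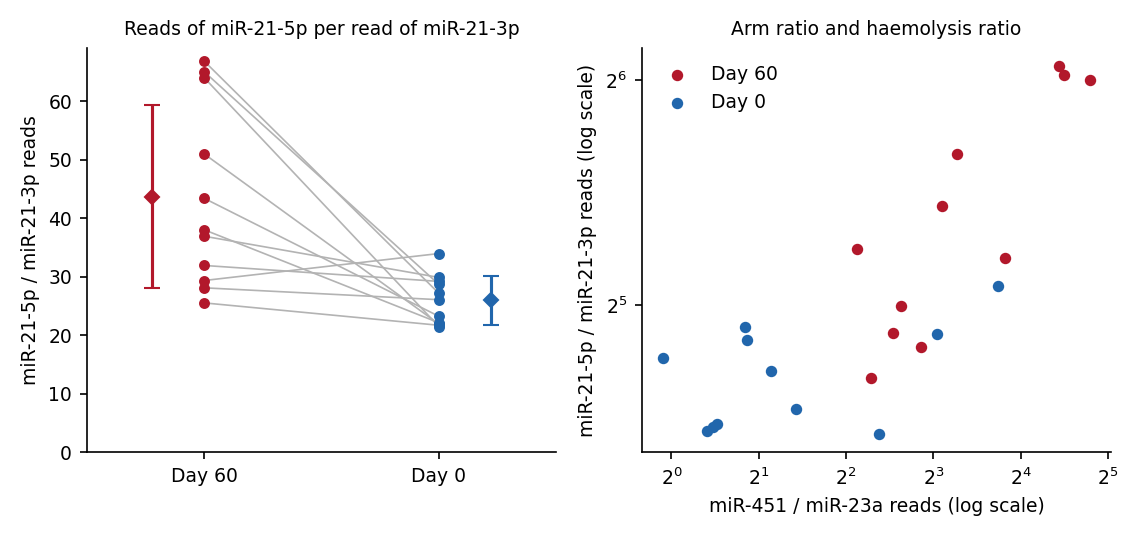
Left, reads of miR-21-5p per read of miR-21-3p on Day 60 and on Day 0, with 1 point per library, lines joining a heifer and diamonds with bars for the mean ± SD (n = 11 each). Right, the same ratio against reads of miR-451 per read of miR-23a, both on log scales, where the Day 60 libraries with the highest arm ratios (64.0 to 66.9) also have the highest miR-451 to miR-23a ratios (21.6 to 27.7).

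The ratio of miR-451 to miR-23a, which the study used as an index of haemolysis, moved with the arm ratio. The paper reports most of its plasma samples, from more days than were sequenced, below its cutoff, which it read as no haemolysis. Here the index is a ratio of sequencing reads, not held against that cutoff. It averaged 12.1 ± 8.22 on Day 60 and 3.67 ± 3.88 on Day 0 (SD, n = 11 each), and the mean log2 difference of 1.96 ± 1.65 passed (SD, n = 11; exact sign-flip permutation test, two-sided p = 0.00488, higher on Day 60 in 9 of 11 heifers). miR-23a itself was lower on Day 60 (log2 fold-change -1.18, SE 0.26, edgeR FDR 0.00837), so the index carries the lower level of its denominator as well as the higher miR-451. On Day 60 the log2 arm ratio tracked the log2 index over the 11 heifers, at r = 0.854 by Pearson (adjusted permutation p = 0.0153 over 11 precursors, unadjusted p = 0.00139) and rho = 0.755 by Spearman (adjusted permutation p = 0.106, unadjusted p = 0.00966). Once heifers 14 and 31, the farthest from the median index, were left out, r stood at 0.751. On Day 0 it was 0.471 (permutation p = 0.146; rho 0.364, permutation p = 0.273), and -0.244 when heifers 12 and 32 were left out. None of the other 10 precursors passed on Day 60, and the next was miR-423 with an r of 0.527 (permutation p = 0.0882, adjusted p = 0.323). The order of the precursors was not stable. When heifers 14 and 31 were left out, miR-6119 had an r of 0.811 on Day 60, above that of miR-21. On Day 0 miR-455 (r -0.842), miR-423 (0.771), miR-151 (-0.747), miR-126 (-0.694) and miR-1388 (0.502) had larger values than miR-21, in one direction or the other.

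The 2 arms were then set against the index one at a time. On Day 60 miR-21-3p had an r of -0.770 over 11 heifers (adjusted permutation p = 0.0242 over 12 relations of the arms, unadjusted p = 0.00605) and a rho of -0.564 (adjusted permutation p = 0.166, unadjusted p = 0.0751). Its r was -0.612 when heifers 14 and 31 were left out. For miR-21-5p r was -0.0958 (adjusted permutation p = 0.951 over 6 relations) and rho was -0.0273 (adjusted permutation p = 0.945), and the difference between the arms was not tested. Without the 3 heifers with the highest index on Day 60, heifers 14, 17 and 31, the mean log2 shift of the arm ratio was 0.43 (exact sign-flip permutation test, n = 8, two-sided p = 0.0312). Without the same 3 heifers, miR-21-5p passed the test of the days at 0.46 on the log2 scale (SE 0.14, edgeR FDR 0.0403), while miR-21-3p had 0.03 (SE 0.17, edgeR FDR 0.890). These settings were added after the values were seen, and the part of haemolysis in the arm ratio was not tested.

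Depth passed no test of this kind when all heifers were counted. The level of miR-21-5p had an r of 0.0240 with log2 total miRNA reads on Day 60 (permutation p = 0.951, adjusted p = 0.951 over 6 relations; rho -0.245, permutation p = 0.468, adjusted p = 0.808) and of -0.318 on Day 0 (permutation p = 0.336, adjusted p = 0.951; rho -0.345, permutation p = 0.301, adjusted p = 0.808). On Day 60 this rested on heifers 17 and 28, without which r was -0.859. No relation between a heifer's levels on the 2 days passed either. The Day 60 and Day 0 levels had an r of 0.164 (permutation p = 0.624) and a rho of 0.100 (permutation p = 0.776) over 11 heifers, and r was -0.00848 without heifers 12 and 24.

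The miRNAs that varied most like miR-21-5p were sought among the other 194, by the correlation of log2 TMM-normalised reads (pseudocount 1) after the mean of each day was removed. Heifers were permuted whole, since the 22 libraries are 11 pairs. In all, 11 of 194 had an adjusted permutation p of r under 0.05, 9 positive and 2 negative, while 8 did by rho. The positive calls did not follow the order by r alone. miR-2284z passed at rank 25 (r 0.461, adjusted permutation p = 0.0332), while miR-2285k at rank 9 did not (r 0.618, adjusted permutation p = 0.0555). The count for r was 29 on RPMM and 9 with DESeq2 size factors. All pairs of rows share library, depth and scaling. The median r over the 194 was 0.00614.

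miR-221, which is high in vascular endothelium and represses KIT in human cells, was the closest. Its r was 0.836 over 22 libraries (adjusted permutation p = 0.00194, unadjusted p = 1e-05, the smallest that 100000 permutations can give), and its rho 0.799 (adjusted permutation p = 0.00388, unadjusted p = 4e-05). On Day 60 alone r stood at 0.825, on Day 0 alone at 0.848 and for the change between the days at 0.858. miR-221 averaged 4153 ± 1143 RPMM on Day 60 and 4210 ± 798 RPMM on Day 0 (SD, n = 11 each) and did not pass the test of the days (log2 fold-change 0.14, edgeR FDR 0.486). Without heifers 12 and 28, the farthest from the median of miR-21-5p, its r was 0.781. By contrast miR-222 had an r of -0.00607 with miR-21-5p (adjusted permutation p = 0.993). miR-126-3p and miR-126-5p, of endothelium and platelets, had 0.222 and 0.229 (adjusted permutation p = 0.565 and 0.557). miR-28 and miR-191, read below as platelet and endothelial miRNAs, had 0.608 and 0.541 and did not pass by r (adjusted permutation p = 0.0555 and 0.0795). The rest of that list, miR-223, miR-197 and miR-24-3p, had 0.459, 0.00421 and -0.307 (adjusted permutation p = 0.222, 0.993 and 0.435).

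miR-181c came next, with an r of 0.819 (adjusted permutation p = 0.00291, unadjusted p = 3e-05) and a rho of 0.822 (adjusted permutation p = 0.00388, unadjusted p = 3e-05). Without the same heifers its r was 0.795. miR-374a followed with an r of 0.754 (adjusted permutation p = 0.00517), miR-345-3p with 0.700 (0.0101), miR-421 with 0.684 (0.0101), miR-142-3p with 0.668 (0.0272), miR-21-3p with 0.638 (0.0415) and miR-151-3p with 0.628 (0.0332). By rho miR-421, miR-21-3p and miR-151-3p did not pass (adjusted permutation p = 0.0600, 0.0600 and 0.0736). The calls of miR-142-3p, miR-21-3p and miR-151-3p were each lost in 6 or 7 of the 11 omissions of a heifer. With DESeq2 size factors the calls of miR-21-3p (r 0.537, adjusted permutation p = 0.110) and miR-151-3p (r 0.576, adjusted permutation p = 0.0745) were lost as well. Of these 8, miR-374a passed the test of the days (log2 fold-change 0.65, SE 0.19, edgeR FDR 0.0220), which 35.4% of all 195 passed, and the other 7 did not. The other strand of the same precursor thus ranked 7 of 194. Within Day 60 its r was 0.541 and did not pass (permutation p = 0.0866, adjusted p = 0.148 over 12 relations of the arms). It was 0.280 without heifers 14 and 17. Within Day 0 its r was 0.822 (permutation p = 0.00187, adjusted p = 0.0112), and 0.670 without heifers 28 and 31.

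At the other end stood miR-484, with an r of -0.736 (adjusted permutation p = 0.0110, unadjusted p = 0.00034) and a rho of -0.758 (adjusted permutation p = 0.00970, unadjusted p = 0.0002). Its r was -0.731 within Day 60 and -0.744 within Day 0, and -0.631 without heifers 12 and 28. miR-132, a neuronal and immune miRNA in human and mouse, followed at -0.621 (adjusted permutation p = 0.0487; by rho 0.160) and was itself lower on Day 60 (log2 fold-change -0.55, edgeR FDR 0.0263), while miR-802 at -0.541 and miR-30f at -0.496 did not pass. The call of miR-132 was lost in 8 of the 11 omissions of a heifer. On RPMM its r was -0.300 and did not pass, and that of miR-484 was -0.613.

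**Figure D5:**
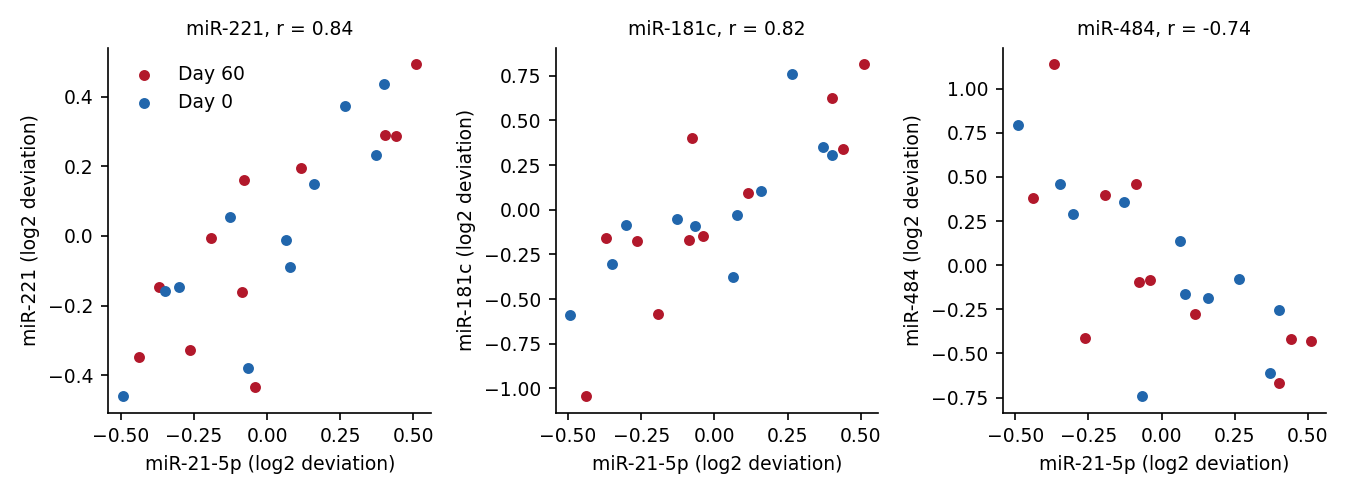
Deviations of log2 TMM-normalised reads from the mean of each day for miR-221, miR-181c and miR-484 (vertical axes) against miR-21-5p (horizontal axes), with 1 point per library and colours for Day 60 and Day 0. The first 2 rise with miR-21-5p (r 0.84 and 0.82) and miR-484 falls (r -0.74).

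Marker miRNAs of blood cells were read beside miR-21-5p, since leukocytes, platelets and endothelium carry it. Their counts stand against 17.4% called higher and 35.4% called in all among the 195 miRNAs. All calls in these lists were higher on Day 60, so the first is the matching share. The leukocyte and erythroid shares lay above the first and near the second, on few miRNAs each, and the difference was not tested. Of 8 leukocyte miRNAs 3 were higher on Day 60 (miR-155 at 1.21, miR-150 at 0.80 and miR-142-5p at 0.51) and 0 were lower, and the median of the 8 was 0.54 on the log2 scale, against -0.06 over all 195. Their summed level ran from 35595 to 70653 RPMM on Day 60 and from 34045 to 49440 RPMM on Day 0. Of 7 platelet and endothelial miRNAs miR-28 was higher, at 0.94 (edgeR FDR 0.00597), and the other 6 did not pass (median -0.15), with sums of 27912 to 62138 RPMM on Day 60 and 29327 to 67251 RPMM on Day 0. Of 6 erythroid miRNAs miR-451 and miR-16b were higher (median 0.57), with sums of 134033 to 388765 RPMM on Day 60 and 74510 to 346917 RPMM on Day 0. Much of each sum came from 1 miRNA. On Day 60 miR-142-5p averaged 40061 RPMM in the leukocyte list, miR-191 33808 RPMM in the platelet and endothelial list and miR-486 187119 RPMM in the erythroid list. miR-223 is counted in both the leukocyte and the platelet and endothelial lists. With library totals 1 leukocyte miRNA and 0 erythroid miRNAs passed. Without heifers 14, 17 and 31, those with the highest miR-451 to miR-23a ratio on Day 60, 0 erythroid miRNAs (median 0.16), 1 leukocyte miRNA (median 0.37) and 2 platelet and endothelial miRNAs (median -0.082) passed. With that ratio as a covariate in edgeR none of the 3 lists had a miRNA that passed, at medians of -0.29, 0.20 and -0.15. The ratio itself differed between the days, so the covariate cannot be separated from the day. miR-451, the numerator of that ratio, is itself 1 of the 6 erythroid miRNAs, and the heifers were picked by their Day 60 values. A lower erythroid median in these settings is therefore partly built in. Both settings were added after the values were seen. The leukocyte miRNAs did not vary alike with miR-21-5p. miR-142-3p, miR-155, miR-223 and miR-142-5p had an r of 0.668, 0.511, 0.459 and 0.401 with it. miR-146a, miR-150, miR-342 and miR-146b had -0.00336, -0.243, -0.254 and -0.427. Only miR-142-3p of the 8 passed (adjusted permutation p = 0.0272). The lowest count of a marker in any library was 16 reads, and the part of these cells in the level of miR-21-5p was not tested.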

How the data were processed

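Plasma RNA was made into TruSeq small RNA libraries and sequenced on an Illumina HiSeq instrument. The authors assigned reads with sRNAbench (Bowtie 0.12.9, bosTau4, miRBase, a single mismatch allowed) and deposited read counts per mature miRNA, 611 bovine and 233 human homologues. The second deposited table holds RPMM, treated here as a score because its human homologues are scaled apart from the bovine miRNAs. It served as an alternative only, and for miR-21-5p it lay within 1% of the count scaled to 1000000 bovine reads in all 22 libraries. A mismatch allowance can assign reads of near-identical miRNAs to one another.

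Samples were grouped by day, and the heifer number given in the labels paired them. Over 195 miRNAs the deviations of a library from its day's mean correlated at 0.141 with those of the same heifer, against -0.00628 with those of other heifers. Tests were edgeR 4.0.16 (R 4.3.3; quasi-likelihood, TMM, heifer as a block) on all miRNAs above the filter, an exact sign-flip permutation test over 2048 patterns for within-heifer differences, and 100000 permutations for correlations, with Python 3.11.15 and scipy 1.17.1. Alternatives used limma 3.58.1 and DESeq2 1.42.0. Wilson 95% intervals take in counting error alone.

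The edgeR step was checked on counts simulated for the comparison of the days (195 miRNAs), and recovered 36.4% of miRNAs changed 1.5-fold and 85.8% of those changed 2-fold. Counts were drawn independently, so these rates may not hold here. miR-21-5p, the lists and the tests were chosen with earlier results of these data known. Named miRNAs are both strands of miR-21, the 14 other abundant miRNAs, the 8 most and 4 least like miR-21-5p, its 4 neighbours by level, markers that passed, and miR-451, miR-23a and miR-128. miR-222, let-7a, miR-301a, miR-454, miR-2284z, miR-2285k and the precursors of the arm comparison were added to these with values in view. So were the platelet, endothelial and leukocyte markers that did not pass. A further list of miRNAs is not reported here. miR-590, which shares the seed of miR-21-5p, and mature sequences were not analysed here.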

Additional observations from a re-analysis of the deposited data

How the results depend on the processing

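The log2 fold-change of miR-21-5p was 0.35 and kept its sign under all 13 settings and all 11 omissions of a heifer. It passed with DESeq2 size factors (0.41, adjusted p = 0.0366), in DESeq2 (0.41, adjusted p = 0.0125) and without the 3 heifers with the highest miR-451 to miR-23a ratio (0.46, adjusted p = 0.0403). Without the replicate block it passed too (log2 fold-change 0.35, edgeR adjusted p = 0.0482), and the block, which pairs the libraries of a heifer, decided no other call of miR-21-5p, miR-21-3p, the arm ratio or the share. miR-21-5p did not pass in the edgeR likelihood ratio test (0.35, unadjusted p = 0.0634, adjusted p = 0.129) or in limma-voom (0.35, adjusted p = 0.0629). Nor did it pass in edgeR on all miRNAs with at least 1 read, over 100 RPMM or on bovine miRNAs only (adjusted p = 0.214, 0.0556 and 0.0806). Leaving out each heifer gave 0.27 to 0.40, and it passed without heifer 17 (0.40, edgeR adjusted p = 0.0420) and without heifer 32 (0.38, edgeR adjusted p = 0.0444). miR-21-3p passed under none, and its log2 fold-change turned to 0.028 without those 3 heifers and to 0.26 with the miR-451 to miR-23a ratio as a covariate. With that covariate 0 of 195 miRNAs passed in edgeR, against 69, and 14 had an unadjusted p under 0.05. The covariate was run in no other tool, and with it miR-21-5p had 0.43 (SE 0.21, against 0.14 without it, edgeR adjusted p = 0.653). The ratio itself differed between the days, by a mean of 1.96 on the log2 scale. It is also built from 2 miRNAs called between the days, so this setting cannot separate the ratio from the day. Between 35 and 97 miRNAs passed when 1 heifer was omitted, 35 of them in the absence of heifer 28, 43 of heifer 11 and 44 of heifer 10. The arm ratio shift kept its sign and passed in all, at 0.59 to 0.77 without each heifer. The r of a heifer's level across the days turned to -0.105 on RPMM and ran from -0.0532 to 0.280 without each heifer, negative without heifers 12 and 28. Of the 8 miRNAs most like miR-21-5p, 5 to 8 remained without each heifer, 5 of them without heifer 17. With 1 heifer left out, miR-142-3p, miR-21-3p, miR-151-3p and miR-132 lost their adjusted call in 6 to 8 of 11 omissions and miR-484 in 1, that of heifer 12 (r -0.670). The cause of these changes was not tested. With 88 reads of miR-21-3p, the Day 60 library of heifer 17 limits its arm ratio. The settings with the miR-451 to miR-23a ratio, and a total without miR-143 for the share, were chosen after seeing the data.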
